A study of Arabidopsis thaliana with 8 samples.

Results

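The 10 AG-peptide genes described here encode the short arabinogalactan peptides AGP12 (AT3G13520), AGP13 (AT4G26320), AGP14 (AT5G56540), AGP15 (AT5G11740), AGP16 (AT2G46330), AGP20 (AT3G61640), AGP21 (AT1G55330), AGP22 (AT5G53250), AGP40 (AT3G20865) and AGP41 (AT5G24105) of *Arabidopsis thaliana*. They are 10 of 33518 loci in a table of RNA-Seq read counts, and they were found by their locus numbers. The list is not a census of the class. The set was chosen by a result of these data, the high level of *AGP22* after brassinolide (BL) in wild type, so that comparison is given as a description without a test for every member, and *AGP22* is described without a test in every comparison that uses wild type libraries. All 10 members passed the filter on low counts that left 20415 loci, but *AGP41* passed only through the wild type BL libraries.

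Seedlings of 4 groups were compared, with 2 libraries each: *iaa3* with BL, *iaa3* in mock, wild type (Col-0) with BL and wild type in mock. All 4 groups were grown in the dark for 5 days on 2 µM propiconazole (PPZ), an inhibitor of brassinosteroid (BR) synthesis. BL, the most active BR, was given at 100 nM for 4 hr. The *iaa3* line carries the *shy2-2* allele, a dominant change in the auxin repressor IAA3 that makes the protein resist degradation, and the comparison asks how far the BR response needs auxin signaling. RNA came from whole etiolated seedlings, and the labels do not say whether the 2 libraries of a group came from separate cultures, so p-values measure only the spread between these samples.

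Arabinogalactan proteins are hydroxyproline-rich proteoglycans of the cell wall and plasma membrane, whose backbones carry large branched sugar chains of galactose and arabinose. AG-peptides are the smallest of them. They are made as precursors with a signal peptide and a C-terminal signal for a glycosylphosphatidylinositol anchor, which leave only a very short mature peptide at the outer face of the membrane. BRs and auxin both promote elongation of hypocotyl cells in the dark, a process that remodels the wall.

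The libraries held 18107519 to 23183988 counts, with a median of 22316700, and replicates differed by more than sampling noise in every group (chi-square per degree of freedom 3.93 to 12.1). *IAA3* had 198 and 259 counts in *iaa3* BL, 306 and 244 in *iaa3* mock, 2874 and 2698 in wild type BL and 997 and 1128 in wild type mock. Every *iaa3* library was thus below every wild type library, although a count cannot show the *shy2-2* base change itself. *PORA*, the protochlorophyllide reductase gene that marks dark-grown tissue, had 9524 to 10312 counts in the 4 *iaa3* libraries and 13848 to 26197 in the 4 wild type libraries. Its part in the members' differences was not tested. In bulk seedlings, fewer cells of a type and less RNA per cell cannot be told apart.

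By RefSeq's annotation of TAIR10.1, the members lie on all 5 chromosomes, with coding regions of 177 to 225 bases inside exonic lengths of 427 to 1101 bases. No member had a second match in that genome of at least 36 bases at 95% identity. A pair of members overlaps a gene on the opposite strand, and the sources do not say whether counting used strand. *AGP16* overlaps AT2G46320, which held 1664 counts over all 8 libraries, and *AGP21* overlaps AT1G55335, which held 0.

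The 250 bases before the start of a gene were searched on both strands for motifs linked to BR, PIF and auxin response. The motifs were the G-box CACGTG, the HUD element CACATG, the BR response elements CGTGTG and CGTGCG, the auxin response element TGTCTC and its variant TGTCGG, and overlapping matches were allowed. The promoters of *AGP22*, *AGP13* and *AGP21* are printed because the largest BL differences in wild type lay in these genes, *AGP41* at 0 to 20 counts aside, and that of *AGP20* because its pattern was the exception, each from 5′ to 3′ on the gene's own strand with matches in capitals.
AGP22: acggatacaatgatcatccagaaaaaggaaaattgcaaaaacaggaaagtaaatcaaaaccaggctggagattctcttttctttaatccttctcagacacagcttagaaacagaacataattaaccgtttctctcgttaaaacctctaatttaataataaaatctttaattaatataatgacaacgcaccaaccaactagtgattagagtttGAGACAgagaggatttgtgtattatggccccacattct
AGP13: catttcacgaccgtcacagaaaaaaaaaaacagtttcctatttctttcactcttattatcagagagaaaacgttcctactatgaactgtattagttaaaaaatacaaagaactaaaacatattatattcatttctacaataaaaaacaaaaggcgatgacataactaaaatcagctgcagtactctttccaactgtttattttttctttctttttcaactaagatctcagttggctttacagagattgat
AGP21: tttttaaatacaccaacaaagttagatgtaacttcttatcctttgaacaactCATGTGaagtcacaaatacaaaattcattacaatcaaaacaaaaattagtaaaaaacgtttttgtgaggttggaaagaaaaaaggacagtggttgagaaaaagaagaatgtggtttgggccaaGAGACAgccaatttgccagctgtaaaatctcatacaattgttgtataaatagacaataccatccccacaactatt
AGP20: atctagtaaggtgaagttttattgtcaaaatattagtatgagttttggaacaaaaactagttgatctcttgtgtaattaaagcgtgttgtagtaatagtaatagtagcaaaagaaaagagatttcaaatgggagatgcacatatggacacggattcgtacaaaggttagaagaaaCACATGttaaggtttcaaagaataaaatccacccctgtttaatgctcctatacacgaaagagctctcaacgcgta
These lie at chr5:21603319-21603568 (plus strand) for *AGP22*, chr4:13317641-13317890 (minus strand) for *AGP13*, chr1:20648892-20649141 (minus strand) for *AGP21* and chr3:22811025-22811274 (minus strand) for *AGP20*, in TAIR10.1. The submitters' processing notes name TAIR9, and the count table itself holds no coordinates, so the loci were matched by number.

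In the printed promoters, GAGACA, the auxin response element read on the other strand, stands 38 bases before the start of *AGP22* and 75 bases before that of *AGP21*. The HUD element stands 75 bases before the start of *AGP20* and, on the other strand, 198 bases before that of *AGP21* and 94 bases before that of *AGP15*. The *AGP13* window held none of these letters. Over all 10 members, TGTCTC was found in 2, against 10.9% of 27443 promoters of the same length, and CACATG in 3, against 11.1%. The G-box, the BR response elements and TGTCGG were found in 0 of 10 members, against 6.49%, 6.71% and 4.16% of all promoters. At least 1 motif was present in 4 of 10 members and in 32.3% of all promoters.

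*AGP22* had 133 and 113 counts in *iaa3* BL, 48 and 43 in *iaa3* mock, 11065 and 11010 in wild type BL and 89 and 64 in wild type mock. The wild type BL libraries stood far above the other 6, and no 2 groups overlapped. In CPM, counts scaled to library size with TMM factors, its level was 6.63 ± 1.42 in *iaa3* BL, 2.05 ± 0.14 in *iaa3* mock, 494 ± 2.68 in wild type BL and 3.29 ± 1.05 in wild type mock (SD, n = 2 each). The *iaa3* BL libraries, the second highest group, were at 7.63 and 5.63 CPM, against 4.04 and 2.55 in wild type mock.

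*AGP13* was likewise highest in wild type BL, with 18 and 19 counts in *iaa3* BL, 15 and 8 in *iaa3* mock, 532 and 586 in wild type BL and 12 and 14 in wild type mock. The *iaa3* mock and wild type mock counts overlapped. Its level was 0.99 ± 0.061 CPM in *iaa3* BL, 0.517 ± 0.217 in *iaa3* mock, 25.0 ± 1.66 in wild type BL and 0.551 ± 0.0098 in wild type mock (SD, n = 2 each).

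*AGP21*, a peptide known to influence root hair cell fate, was far more abundant in mock seedlings than either of these. It had 618 and 617 counts in *iaa3* BL, 609 and 552 in *iaa3* mock, 6793 and 7043 in wild type BL and 906 and 968 in wild type mock. In CPM the groups did not overlap, with 35.5 and 30.7 in *iaa3* BL, 27.2 and 25.1 in *iaa3* mock, 304 and 315 in wild type BL and 41.1 and 38.6 in wild type mock. *AGP14*, which has been linked to root hair growth, had 44 and 42 counts in *iaa3* BL, 44 and 37 in *iaa3* mock, 362 and 344 in wild type BL and 102 and 99 in wild type mock. All 4 *iaa3* libraries lay below both wild type mock libraries, whatever the treatment, as they did for *AGP21* and, in CPM, for *AGP12*.

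*AGP12*, *AGP15* and *AGP16* were the abundant members of mock seedlings. *AGP12* had 2438 and 3160 counts in *iaa3* BL, 3160 and 3322 in *iaa3* mock, 7965 and 8295 in wild type BL and 3646 and 4279 in wild type mock. *AGP15* had 3543 and 4308 in *iaa3* BL, 3845 and 4237 in *iaa3* mock, 5592 and 6227 in wild type BL and 3560 and 4492 in wild type mock. Both were highest in wild type BL. In CPM, *AGP12* overlapped between *iaa3* BL and *iaa3* mock, while *AGP15* had 203 and 215 in *iaa3* BL, above the 172 and 192 of *iaa3* mock and the 161 and 179 of wild type mock, which overlapped. *AGP16* had 1612 and 2402 counts in *iaa3* BL, 1759 and 1802 in *iaa3* mock, 4138 and 3979 in wild type BL and 1904 and 1870 in wild type mock. Its *iaa3* BL libraries differed most between replicates, at 92.5 and 120 CPM, and the lower of them was still above the highest mock library, at 86.4 CPM.

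*AGP20* showed another order of groups. It had 303 and 364 counts in *iaa3* BL, 234 and 221 in *iaa3* mock, 307 and 296 in wild type BL and 279 and 294 in wild type mock. Its level was highest in *iaa3* BL, at 17.8 ± 0.527 CPM, and lowest in *iaa3* mock, at 10.2 ± 0.304, while wild type BL had 13.5 ± 0.374 and wild type mock 12.2 ± 0.659 (SD, n = 2 each). No 2 of the 4 groups overlapped in CPM.

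The remaining pair was near the limit of detection. *AGP40*, which is known from pollen, had 14 and 15 counts in *iaa3* BL, 18 and 15 in *iaa3* mock, 20 and 24 in wild type BL and 24 and 19 in wild type mock. All 8 libraries lay between 0.681 and 1.09 CPM. The 2 mock groups overlapped, as did BL and mock within each genotype, while both *iaa3* BL libraries (0.804 and 0.747) lay below both wild type BL libraries (0.896 and 1.07). *AGP41* had 0 and 0 counts in *iaa3* BL, 0 and 1 in *iaa3* mock, 16 and 20 in wild type BL and 4 and 0 in wild type mock. A count of 0 allows up to 3 counts, or 0.120 to 0.172 CPM in these libraries, and such limits cover counting error only. The pollen genes *AGP6* and *AGP11* were low as well, at 2 to 14 and 0 to 3 counts per library.

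**Figure D1:**
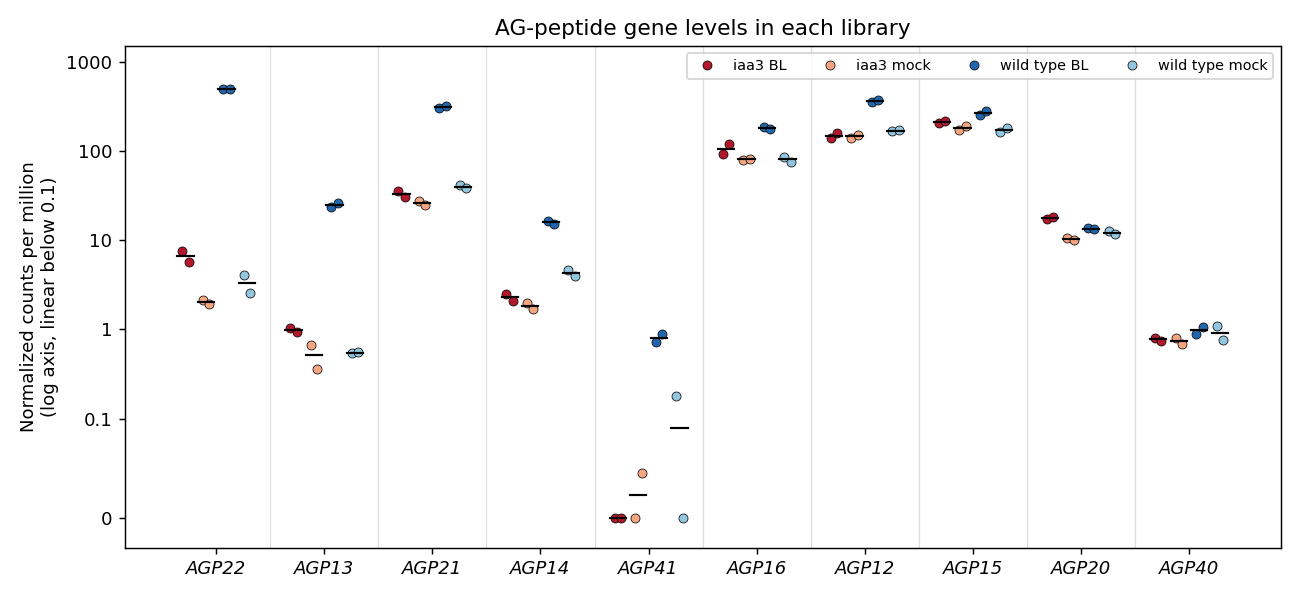
Levels in CPM (counts scaled to library size) of the 10 AG-peptide genes in each of 8 libraries, on a log axis that is linear below 0.1, with points for libraries and a black line for the mean of the 2 libraries of a group. The dark blue wild type BL points stand apart from the other groups for *AGP22*, *AGP13*, *AGP21* and *AGP14*, while *AGP20* is highest in *iaa3* BL and *AGP40* is near 1 CPM throughout.

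Between genes, levels were set side by side per kb of exonic length in the RefSeq models, which need not be those used for counting. On this scale *AGP21* and *AGP22* led in wild type BL, with mean levels of 725 and 663 CPM per kb, followed by *AGP12* at 449. In the other 3 groups *AGP12* and *AGP15* held the first 2 ranks and *AGP22* was 6th or 7th of 10, at 8.90 CPM per kb in *iaa3* BL, 2.75 in *iaa3* mock and 4.42 in wild type mock. *AGP41* was last in every group. The order of *AGP12* and *AGP15* changed among those 3 groups.

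Summed over the 10 members, the level was 525 ± 34.9 CPM in *iaa3* BL, 450 ± 20.9 in *iaa3* mock, 1669 ± 29.5 in wild type BL and 480 ± 3.52 in wild type mock (SD, n = 2 each). Without *AGP22* the sums were 519 ± 36.3, 448 ± 21.1, 1175 ± 32.2 and 477 ± 4.57 in the same order of groups. *AGP22* made up 1.52 and 1.02% of the AG-peptide reads in *iaa3* BL, 0.493 and 0.420% in *iaa3* mock, 30.1 and 29.1% in wild type BL and 0.846 and 0.529% in wild type mock. With 2 libraries against 2, no permutation test of such a sum could pass the 0.05 level, and none was run.

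**Figure D2:**
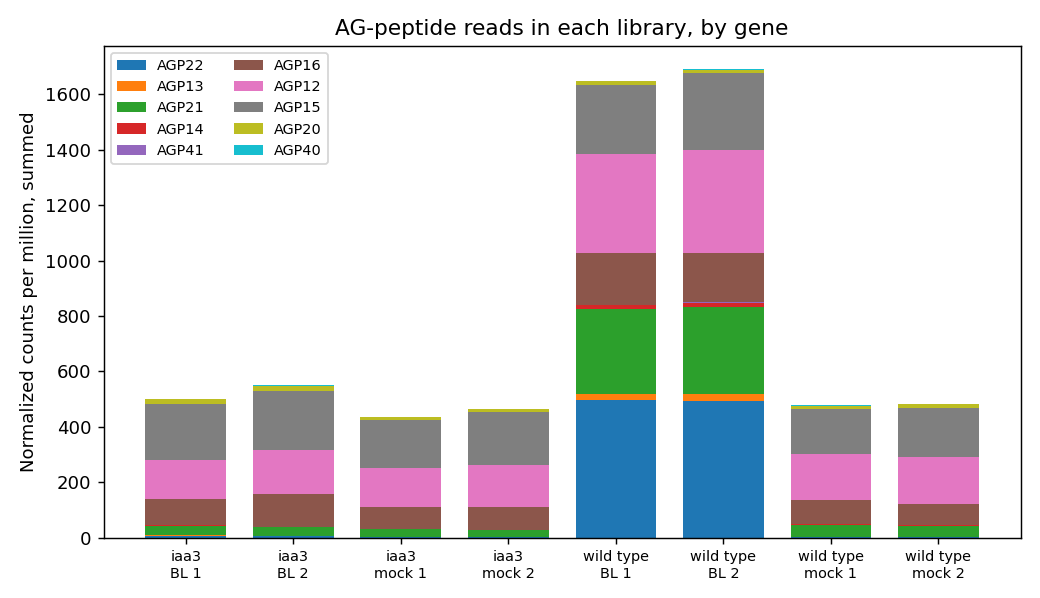
Summed level in CPM of the AG-peptide genes in each library, with 1 colour for each gene. The 2 wild type BL bars reach 1648 and 1690 CPM, with *AGP22* at their base, against 435 to 550 CPM in the other 6 libraries.

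The study's rule was at least 1.5-fold with a p-value under 0.01, taken here as unadjusted. With BL in wild type, the comparison that led to this set, 8 of 10 members lay past these limits on the higher side. On the lower side there were 0. The limits take in 8.45% of all tested loci as higher and 5.87% as lower. Nothing is read from the members' count, since it holds *AGP22*, the gene that chose the set, and *AGP41*, which passed the filter only through its high group. It was 6 of 8 without that pair. The log2 fold changes of BL over mock were 7.24 (SE 0.16) for *AGP22*, the 6th largest of all tested loci, and 5.49 (SE 0.19) for *AGP13*, the 14th largest. They were 3.16 (SE 0.75) for *AGP41*, 2.96 (SE 0.084) for *AGP21*, 1.88 (SE 0.14) for *AGP14*, 1.17 (SE 0.11) for *AGP16*, 1.11 (SE 0.076) for *AGP12* and 0.63 (SE 0.086) for *AGP15*, the member just past the 1.5-fold limit. *AGP20*, at 0.15 (SE 0.092), and *AGP40*, at 0.10 (SE 0.31), were short of it. With each library left out in turn, the *AGP15* value ran from 0.56 to 0.72, on both sides of the 1.5-fold limit. The *AGP41* value rested on 16 and 20 counts with BL against 4 and 0 in mock.

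In *iaa3*, BL raised *AGP22* and *AGP20*. *AGP22* rose by a log2 fold change of 1.68 (SE 0.22, edgeR adjusted p = 0.000429), a 3.21-fold difference that is independent of the wild type counts apart from the shared estimate of spread. *AGP20* rose by 0.79 (SE 0.094, edgeR adjusted p = 0.000244), or 1.73-fold. The counts leave out *AGP22*, the gene that chose the set, and *AGP41*, which passed the filter only through wild type BL. Of the other 8 members, 1 was called higher and 0 lower, beside 4.69% and 3.46% of all tested loci. At an unadjusted p-value under 0.05 edgeR had 5 of these 8 higher and 0 lower, beside 16.7% and 14.6% of tested loci. DESeq2 called 1 of these 8 higher and 0 lower, beside 3.26% and 2.29% of the loci it tested. With each library left out in turn, the log2 fold changes were 1.46 to 1.89 for *AGP22* and 0.76 to 0.82 for *AGP20*, all past 1.5-fold.

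Of the other members in *iaa3*, *AGP16* had a log2 fold change of 0.40 (SE 0.11, edgeR adjusted p = 0.0296) and *AGP21* one of 0.34 (SE 0.087, edgeR adjusted p = 0.0215), both short of 1.5-fold. *AGP13*, which was among the most BL-responsive members of wild type, had 0.92 (SE 0.32, edgeR adjusted p = 0.0725), with a 95% interval of 0.21 to 1.63. Without *iaa3* mock replicate 1 its value was 1.43 and it passed the rule. *AGP14* had 0.33 (95% interval −0.11 to 0.78), *AGP15* 0.20 (0.0095 to 0.39), *AGP12* 0.026 (−0.14 to 0.19) and *AGP40* 0.058 (−0.71 to 0.83). No fold was given for *AGP41*, which was at or under 3 counts in all 4 *iaa3* libraries. Over the 9 members other than *AGP41*, the median was 0.34 in *iaa3*, against 0.0065 over all tested loci. In wild type it was 1.17, against −0.0097, a description, since it holds *AGP22*, the gene that chose the set.

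**Figure D3:**
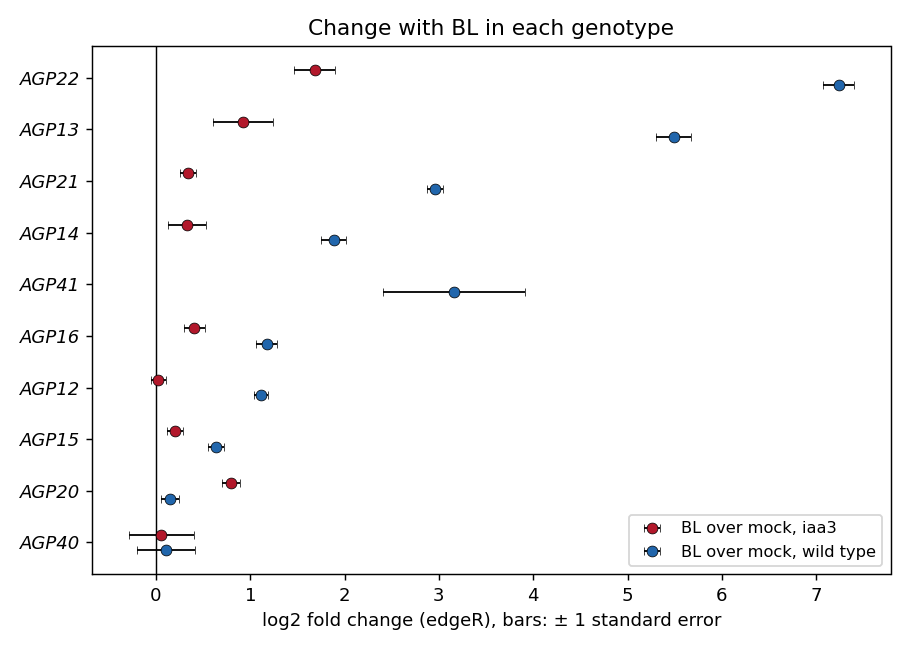
Log2 fold changes of BL over mock for each AG-peptide gene in *iaa3* (red) and wild type (blue), with bars of ± 1 standard error from the fit over 8 libraries. *AGP22* is at 1.68 in *iaa3* and 7.24 in wild type, *AGP20* is the member whose *iaa3* value lies clearly to the right of its wild type value, and *AGP41* is drawn for wild type alone.

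The difference between these responses, *iaa3* minus wild type, was tested as an interaction and called at an adjusted p-value under 0.05. Of the 8 members other than *AGP22* and *AGP41*, 6 were called with a smaller response in *iaa3* and 1 with a larger one. Of all tested loci, 9.95% and 7.63% were called in these directions. These values contain the wild type response and so share its libraries with the comparison that led to the set. *AGP22* differed by −5.56 on the log2 scale (SE 0.32), given without a test. The response of *AGP13* differed by −4.56 (SE 0.44, edgeR adjusted p = 6.06e-05), that of *AGP21* by −2.62 (SE 0.12, edgeR adjusted p = 7.62e-07) and that of *AGP14* by −1.55 (SE 0.24, edgeR adjusted p = 0.00162).

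Among the abundant members, *AGP12* differed by −1.09 (SE 0.11, edgeR adjusted p = 6.79e-05), *AGP16* by −0.77 (SE 0.16, edgeR adjusted p = 0.00705) and *AGP15* by −0.44 (SE 0.12, edgeR adjusted p = 0.0310). The *AGP15* call was lost when any 1 of 5 libraries was left out: *iaa3* BL replicate 1 (adjusted p = 0.0913 by edgeR), *iaa3* BL replicate 2 (0.0519), *iaa3* mock replicate 2 (0.147), wild type BL replicate 2 (0.116) and wild type mock replicate 1 (0.0682). *AGP20* was the member with the larger response in *iaa3*, by 0.65 (SE 0.13, edgeR adjusted p = 0.00694), and its call held with each library left out. *AGP40* differed by −0.045 (95% interval −1.07 to 0.98), which leaves a difference of up to about 1 on the log2 scale in either direction undetectable at its depth. The *AGP41* value was not called and rests on 0 counts in *iaa3* BL.

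With BL, leaving out *AGP22* and *AGP41*, 5 of 8 members were lower in *iaa3* than in wild type and 0 were higher by the 1.5-fold rule, which called 13.8% of all tested loci lower and 11.2% higher. DESeq2 also called 5 lower and 0 higher, beside 9.51% and 8.35% of the loci it tested. At an unadjusted p-value under 0.05 edgeR had 6 lower and 1, *AGP20*, higher, beside 28.1% and 27.3%. *AGP22* was 74.9-fold lower in *iaa3* (log2 fold change −6.23, SE 0.15), a description. *AGP13* was 25.2-fold lower (log2 fold change −4.65, SE 0.18, edgeR adjusted p = 1.45e-08) and *AGP21* 9.36-fold lower (−3.23, SE 0.086, edgeR adjusted p = 2.18e-09). *AGP14* was 6.86-fold lower (−2.78, SE 0.15, edgeR adjusted p = 1.70e-07), *AGP12* 2.45-fold lower (−1.29, SE 0.076, edgeR adjusted p = 2.80e-07) and *AGP16* 1.71-fold lower (−0.77, SE 0.11, edgeR adjusted p = 0.000192). *AGP41* was at 0 counts in both *iaa3* BL libraries and at least 5.01-fold lower there, taking 3 counts per library as the limit.

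*AGP15*, *AGP20* and *AGP40* were not called. *AGP15* had a log2 fold change of −0.34 (SE 0.085, edgeR adjusted p = 0.00724) and *AGP20* one of 0.40 (SE 0.091, edgeR adjusted p = 0.0042), both short of 1.5-fold and in opposite directions. *AGP40* had −0.34 (95% interval −1.07 to 0.39). The median of the 10 members was −1.81 with *AGP41* at its bound, against −0.0027 over all tested loci. Nothing is read from this median. It holds *AGP22*, the gene that chose the set, and *AGP41*, which passed the filter only through wild type BL.

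In mock seedlings the genotypes differed in fewer members. *AGP14* was 2.34-fold lower in *iaa3* (log2 fold change −1.23, SE 0.18, edgeR adjusted p = 0.000324) and *AGP21* was 1.52-fold lower (−0.61, SE 0.085, edgeR adjusted p = 0.000282). These were 2 of the 8 members other than *AGP22* and *AGP41* called lower, with 0 called higher. Of all tested loci, 9.48% were called lower and 8.47% higher. DESeq2 gave the same counts, beside 5.94% and 6.29% of the loci it tested. At an unadjusted p-value under 0.05 edgeR had 4 of these 8 members lower and 0 higher, beside 22.7% and 23%. The *AGP21* value lay close to the 1.5-fold limit, and it fell short without *iaa3* mock replicate 2, at −0.55, and without wild type mock replicate 1, at −0.56, so that 1 member was called in each case. *AGP22* had a log2 fold change of −0.67 (SE 0.24), given without a test, and its size rested on the wild type mock libraries, at −0.32 without replicate 1 and −0.97 without replicate 2.

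The other members were not called in mock. Their log2 fold changes were −0.25 for *AGP20*, −0.20 for *AGP12*, −0.30 for *AGP40* and −0.090 for *AGP13*, against 0.096 for *AGP15* and −0.0038 for *AGP16*, and no fold was given for *AGP41*. The 95% intervals reached −0.46 for *AGP20* and −0.37 for *AGP12*, and ran between −0.86 and 0.68 for *AGP13*. Root hair markers were read beside *AGP14* and *AGP21*, because whole seedlings hold roots. The summed level of *EXPA7*, *COBL9*, *PRP3*, *ADF8* and *RHD2* was 37.7 to 44.8 CPM in *iaa3* BL, 30.5 to 37.4 in *iaa3* mock, 34.0 to 35.8 in wild type BL and 31.1 to 31.8 in wild type mock, all 5 being detected in every library. Of these markers, *COBL9* was higher in *iaa3* with BL (log2 fold change 0.89, SE 0.19, edgeR adjusted p = 0.00316) and *EXPA7* in mock (0.64, SE 0.18, edgeR adjusted p = 0.0189), while *RHD2* had −0.36 in mock (SE 0.10, edgeR adjusted p = 0.0167), short of 1.5-fold. The part of root hair cells in the differences of *AGP14* and *AGP21* was not tested.

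**Figure D4:**
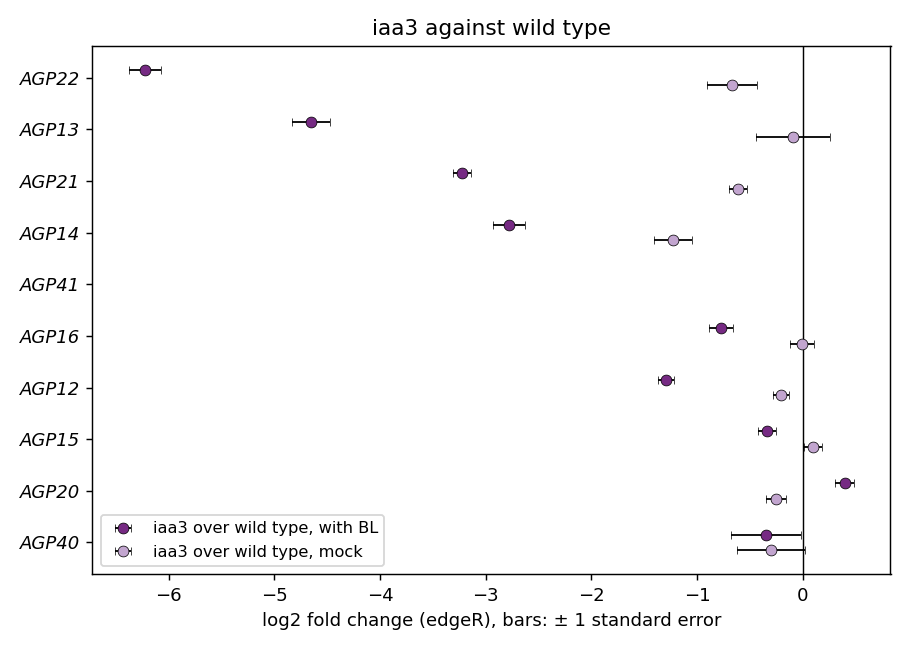
Log2 fold changes of *iaa3* over wild type with BL (dark purple) and in mock (light purple) for 9 AG-peptide genes, with bars of ± 1 standard error. The values with BL reach −6.23 for *AGP22* and −4.65 for *AGP13*, while those in mock lie between −1.23 and 0.096, and *AGP41*, at 0 counts in *iaa3* BL, is not drawn.

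Other genes of the arabinogalactan class were taken from lists set by gene symbol or enzyme role. Of 20 other genes with an *AGP* symbol, 17 were tested. Between *iaa3* and wild type with BL, 9 of them were lower and 3 higher, beside 13.8% and 11.2% of all tested loci. With BL in wild type 7 were higher and 2 lower, beside 8.45% and 5.87%. With BL in *iaa3* 3 were higher and 0 lower, beside 4.69% and 3.46%. *AGP4*, known as *JAGGER* for its part in blocking surplus pollen tubes, had 598 and 479 counts in *iaa3* BL, 274 and 260 in *iaa3* mock, 14326 and 14370 in wild type BL and 1589 and 1196 in wild type mock. Its log2 fold change of BL over mock was 1.27 in *iaa3* (SE 0.21, edgeR adjusted p = 0.00181). In wild type it was 3.42 (SE 0.19), given without a test. *AGP4* was named because it had the largest called rise of its list with BL in each genotype.

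Of 19 *FLA* genes, which encode larger arabinogalactan proteins with fasciclin domains, 15 were tested. With BL, 10 were lower in *iaa3* than in wild type and 1 was higher, and the shares over all tested loci are those given for the members. With BL against mock in *iaa3*, 2 were higher and 1 lower, beside 4.69% and 3.46% of all tested loci. In wild type 8 were higher and 2 lower, beside 8.45% and 5.87%. *FLA9* had 4172 and 4376 counts in *iaa3* BL, 4495 and 4135 in *iaa3* mock, 20641 and 19771 in wild type BL and 4301 and 3922 in wild type mock. Only its wild type BL libraries stood apart. *FLA11*, known from secondary walls of xylem, had 15 and 11 counts in *iaa3* BL against 172 and 176 in wild type BL, a log2 fold change of −3.47 (SE 0.23, edgeR adjusted p = 7.24e-07). It was lower in *iaa3* in mock as well, with 27 and 30 counts against 114 and 163 (−2.18, SE 0.21, edgeR adjusted p = 1.96e-05).

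Calls among the enzymes that build the sugar chains are given beside the shares over all tested loci. Nothing is read from counts of this size. Of 18 loci for prolyl hydroxylases and for the galactosyl-, glucuronosyl- and fucosyltransferases of arabinogalactan, 17 were tested, and 0 were called with BL in wild type, in *iaa3* or in the interaction, by edgeR and by DESeq2 alike. The 1.5-fold rule called 8.45% of all tested loci higher and 5.87% lower with BL in wild type, and 4.69% and 3.46% in *iaa3*. In the interaction 7.63% were called higher and 9.95% lower. At an unadjusted p-value under 0.05, edgeR had 2 higher and 3 lower with BL in *iaa3*, beside 16.7% and 14.6% of all tested loci. With BL in wild type it had 5 higher and 0 lower (21.5% and 20.3%). For the interaction it had 0 higher and 2 lower (15.1% and 16.2%). DESeq2 called 6.2% of its tested loci higher and 3.86% lower with BL in wild type. Its shares were 3.26% and 2.29% with BL in *iaa3*, and 5.56% and 8.05% in the interaction. With BL, 2 were lower in *iaa3* and 0 higher by the 1.5-fold rule, beside 13.8% and 11.2% of all tested loci. In mock 1 was lower and 0 higher, beside 9.48% and 8.47%. AT1G27120, a hydroxyproline galactosyltransferase gene, had 41 and 67 counts in *iaa3* BL, 65 and 57 in *iaa3* mock, 184 and 172 in wild type BL and 120 and 156 in wild type mock. Its log2 fold change of *iaa3* over wild type was −1.47 with BL (SE 0.18, edgeR adjusted p = 5.91e-05) and −1.09 in mock (SE 0.18, edgeR adjusted p = 0.000819).

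Across the 8 libraries, the log2 CPM of *AGP22* was most like that of *EIL1* (r = 0.997), an ethylene-response transcription factor gene, *ACT8* (r = 0.996), an actin gene, and *XTH4* (r = 0.996), a xyloglucan endotransglucosylase gene, among 13020 loci whose log2 CPM averaged 3 or more. These r values describe 8 points in 4 groups, of which the 2 wild type BL libraries lie far from the others, so they carry no p. Likeness of pattern was not likeness of size. *EIL1* had 1784 and 2043 counts in *iaa3* BL, 2193 and 2066 in *iaa3* mock, 3064 and 3086 in wild type BL and 2207 and 2416 in wild type mock. Among the members, r with *AGP22* was 0.994 for *AGP13*, 0.983 for *AGP21*, 0.961 for *AGP12*, 0.957 for *AGP16*, 0.922 for *AGP14*, 0.905 for *AGP41*, 0.894 for *AGP15*, 0.567 for *AGP40* and 0.258 for *AGP20*.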

How the data were processed

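For the TruSeq RNA-Seq libraries of etiolated seedlings, the authors deposited raw read counts, 1 column per library, which had not been normalized. The submitters' processing notes name CASAVA, TopHat, HTSeq and TAIR9. Tool settings, strand and the treatment of reads matching several loci are not given in the sources used here. Groups came from the sample labels.

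The analysis used edgeR 4.0.16 in R 4.3.3, with DESeq2 1.42.0 as an alternative. After filterByExpr by group and TMM scaling, a single quasi-likelihood model with a coefficient for each group was fitted to all 8 libraries. Calls needed a 1.5-fold difference and a p-value under 0.01, the study's rule. The study does not say whether its p-value was adjusted, and the unadjusted one was used here. Interaction calls needed a Benjamini-Hochberg adjusted p-value under 0.05. All p-values were adjusted over 20415 loci. Library-level log2 CPM used a prior count of 2. Standard errors came from the F statistic. The fit was tested on simulated data with known answers. A count of 0 was taken to allow 3 counts per library.

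The members and lists were chosen with earlier results of these data known. All members were named, with the 3 loci most like *AGP22* and, from each context list, the called locus with the largest change in each direction of a comparison. Of the loci, 32709 matched the RefSeq table of TAIR10.1, the source of names, lengths and promoter sequences. Alternatives were RLE factors, library size alone, DESeq2, other filters, only the groups compared, another call rule, a replicate block and each library left out. Protein sequences were not used here.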

Additional observations from a re-analysis of the deposited data

Results flagged for a closer look

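For 7 members the response to BL differed between *iaa3* and wild type in the test of the difference itself (edgeR interaction, *iaa3* minus wild type, log2 scale): *AGP13* (−4.56), *AGP21* (−2.62), *AGP14* (−1.55), *AGP12* (−1.09), *AGP16* (−0.77) and *AGP15* (−0.44) had the smaller response in *iaa3*, and *AGP20* (0.65) the larger. Of all tested loci, 9.95% were called lower in this test and 7.63% higher. The differences contain the wild type response, and so share libraries with the comparison that led to the set. On the log2 scale, ratios of single BL to single mock libraries of *AGP20* ran between 0.73 and 0.85 in *iaa3*. In wild type they ran between 0.063 and 0.23. For *AGP21* they ran between 0.17 and 0.50 in *iaa3* and between 2.89 and 3.02 in wild type. *AGP13* held 8 to 19 counts in its 6 libraries outside wild type BL, and the call of *AGP15* was lost when any 1 of 5 libraries was left out.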

How the results depend on the processing

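Under alternatives, 661 values of the 9 members other than *AGP41* were recomputed. Of these, 633 kept their direction and side of the threshold or, where no test was read, moved by less than the spread between libraries. The number of members called moved by more than 1.5 times only for *iaa3* against wild type in mock. With each library left out, this number ran over 1 to 3 members. The value of 3 is not read, since it was reached only by counting *AGP22*, which is described without a test in that comparison. The fall to 1 came from *AGP21*. Directions turned only where the change was close to 0. With library size alone, *AGP12* with BL in *iaa3* had a log2 fold change of −0.016, *AGP15* in mock −0.026 and *AGP40* in the interaction 0.015. *AGP16* in mock was 0.0050 with RLE factors and 0.0056 with DESeq2. Leaving out single libraries moved *AGP12* with BL in *iaa3* between −0.062 and 0.11, *AGP40* there between −0.055 and 0.18, *AGP16* in mock between −0.10 and 0.10, *AGP13* in mock between −0.59 and 0.28 and *AGP40* in the interaction between −0.32 and 0.19. Library size alone shifted the median of all loci to −0.11 with BL in wild type and to −0.13 in mock, and the share of calls that were higher was 45.4% against 59.0% with BL in wild type, 34.1% against 47.2% in mock and 56.2% against 43.4% in the interaction. It left *AGP15* with BL in wild type short of 1.5-fold, at 0.53, and ended the call of *AGP15* in the interaction (−0.37, adjusted p = 0.0630 by edgeR). DESeq2 lost *AGP41* with BL in wild type, and a minimum of 10 counts in every library removed *AGP13* and *AGP41* from the test. For the interaction, a 1.5-fold difference with an unadjusted p-value under 0.01 called 969 loci higher and 1327 lower, against 1558 and 2031. A replicate block by number changed no call of a member other than *AGP22*, which is not read in mock. The labels give no shared origin for such a block, and correlations of deviations lay between −0.063 and 0.24. The fit to only the groups compared was not run for the interaction, which needs all 4. With 2 libraries per group, *AGP13*, *AGP40* and *AGP41* are limited by their low counts. The cause of these shifts was not tested.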

Other observations

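Further arabinogalactan genes outside the AG-peptide list had these values. *AGP5* had 107 and 230 counts in *iaa3* BL, 83 and 123 in *iaa3* mock, 32 and 28 in wild type BL and 11 and 29 in wild type mock, all 4 *iaa3* libraries lying above all 4 wild type libraries. Its log2 fold change of *iaa3* over wild type was 2.72 with BL (SE 0.36, edgeR adjusted p = 0.000119) and 2.45 in mock (SE 0.41, edgeR adjusted p = 0.000946). *FLA13* had 1432 and 1928 counts in *iaa3* BL, 2929 and 2789 in *iaa3* mock, 3544 and 3682 in wild type BL and 872 and 905 in wild type mock, and its response to BL differed by −2.63 (SE 0.12, edgeR adjusted p = 7.62e-07). *AGP17*, a lysine-rich member, had 260 and 262 counts in *iaa3* BL, 358 and 311 in *iaa3* mock, 96 and 117 in wild type BL and 241 and 236 in wild type mock, and *FLA5* had 27 and 37, 62 and 44, 18 and 14, and 51 and 76 counts in the same order of groups. *AGP24* had 221 and 186 counts in *iaa3* BL and 237 and 232 in *iaa3* mock. It had 2802 and 2756 in wild type BL and 596 and 663 in wild type mock. Wild type BL was highest and all 4 *iaa3* libraries lay below both wild type mock libraries, as for *AGP14*, *AGP21* and *AGP4*.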
